A study of Drosophila melanogaster with 35 samples.

Results

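Euchromatic X is the part of the Drosophila melanogaster X chromosome between its telomere-proximal tip and its pericentric heterochromatin. It was defined here by position alone, as all 100-kb windows of X whose midpoint lies above 0.6 Mb and below 20.4 Mb, leaving out 2.7 to 3 Mb (within and beside kirre) and 8.35 to 8.6 Mb (the chorion gene cluster). The rule kept 1922 of the 2355 windows of X and of the 13391 windows measured in all. The background was the 7282 windows of 2L (2195), 3L (2295) and 3R (2792) outside pericentric regions. Arm 2R was not part of it, so the arms named below are these 3. Windows just inside and just outside the distal limit were at 0.060 and 0.053 in WT wing discs, so there the limit does not fall on a step. The rule left out 56 windows at the distal tip, 320 at the proximal end, 31 in the kirre block and 26 in the chorion cluster. The kirre block had a median of 0.67 in WT mitotic follicle cells and 0.031 in WT wing discs.

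The study measured replication timing in female larval wing imaginal discs and in follicle cells of adult ovaries. Nuclei were sorted by DNA content into G1 and S phase, and a window's value is the log2 of its S phase read share over its G1 read share, so that a higher value means earlier replication. Wing discs came from 3rd instar larvae that were Rif1 allele 1 over allele 2 (Rif1-, no functional Rif1), the PP1 allele over allele 1 (Rif1PP1, in which the only Rif1 protein lacks a working binding motif for protein phosphatase 1) or Yellow-white (WT). Follicle cells in mitotic S phase, between 2C and 4C, came from Rif1-, Rif1PP1, Rif1 allele 2 over the balancer CyO (Rif1-/+, with 1 null copy) and Oregon-R (WT) females. Follicle cells in endocycle S phase, between 4C and 8C, came from Rif1- and Oregon-R females. Each of the 9 conditions is deposited as 1 mean over 2 S phase samples, so no condition has a replicate error, no test was possible and the read depth is unknown. In place of a replicate error, the spread between the 3 background arms is given beside each value of X. That spread measures how arms differ within a condition and not how samples differ. Wing discs and follicle cells also differed in WT strain, in library kit and in sequencer, and these cannot be told apart from tissue. The methods divide every S phase sample by G1 cells of wing discs, but the labels list G1 samples of more than one disc genotype. In the mutant discs, genotype and G1 sample therefore cannot be told apart.

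In S phase, a stretch of DNA that has been copied is present in more copies than one that still waits, and the S/G1 ratio reads this difference across the genome. Euchromatin is generally copied early and pericentric heterochromatin late. Rif1 brings protein phosphatase 1 to chromatin, where it counteracts activation of the replicative helicase and thereby holds back late domains. Drosophila females carry a pair of X chromosomes and males a single one, and the male X is bound by the dosage compensation complex, whose non-coding RNAs roX1 and roX2 are themselves encoded on X. All cells measured here were female.

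The X sequence differed from that of the arms in its simple repeats more than in its base composition. GC content had a median of 42.4% over X windows and 42.4% over background windows. X windows held a median of 9 protein-coding genes, against 11 in the background. Runs of at least 6 CA units, on either strand, had a median of 13 per X window and 5 per background window, and at least 1 such run lay in 99.5% of X windows and 95.7% of background windows. Runs of at least 6 GA units had a median of 3 per X window and 1 per background window, with at least 1 in 90.0% and 69.8% of windows. The dm6 reference (RefSeq) held 2847 CA runs and 620 GA runs within euchromatic X. The longest of each are printed to show what the repeats that set X apart look like. The CA run has 25 units and lies at chrX:4699511-4699600 (plus strand, within ctp), and the GA run has 28 units and lies at chrX:9190806-9190901 (plus strand, in no annotated gene). Capitals mark the repeat run and lower case the 20 flanking bases on either side:
CA run on X: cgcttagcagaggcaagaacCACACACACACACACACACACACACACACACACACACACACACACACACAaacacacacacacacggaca
GA run on X: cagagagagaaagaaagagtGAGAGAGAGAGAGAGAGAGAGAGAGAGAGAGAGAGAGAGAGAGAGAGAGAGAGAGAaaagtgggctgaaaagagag
The number of CA runs in an X window was weakly related to its timing, with Spearman coefficients between -0.28 and 0.089 over 1922 overlapping windows in the 9 conditions. For GA runs the coefficients ran between -0.090 and 0.17. The window of the longest CA run was at -0.061 in Rif1-, -0.062 in Rif1PP1 and 0.035 in WT wing discs, and at 0.18 in Rif1- and 0.17 in WT mitotic follicle cells.

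A hobo element is shown because the earliest run of X windows in 4 of the 6 follicle cell conditions is made of the windows that contain it. It is H{}84, a copy of the DNA transposon hobo of 2981 bases, at chrX:8293303-8296283 (dm6, as all positions here) inside nAChRalpha3, a nicotinic acetylcholine receptor subunit gene. Capitals mark the 12 bases at each end that are the inverted complement of each other, and the lower case includes 20 bases of flanking X sequence (chrX:8293283-8293342 and chrX:8296244-8296303, plus strand):
hobo left end: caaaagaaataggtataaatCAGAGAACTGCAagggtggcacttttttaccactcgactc
hobo right end: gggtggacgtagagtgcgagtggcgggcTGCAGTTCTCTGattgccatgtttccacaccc

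As a whole, euchromatic X replicated at about the time of the 3 background arms in WT wing discs and WT mitotic follicle cells. It lay a little below all 3 arms in both mutant wing discs. In Rif1- wing discs the median of X was -0.013, against 0.016 in the background, a difference of -0.029, and the arms had medians between 0.0021 and 0.034. In Rif1PP1 wing discs X was at -0.018 and the background at 0.010, a difference of -0.028, with the arms between -0.0048 and 0.024. In WT wing discs X was at 0.024 and the background at 0.024, with a difference of -0.00046 and the arms between 0.013 and 0.043. Both mutant discs thus had X under the lowest arm, and in WT discs X lay between the arms. The difference of -0.029 in Rif1- discs is one of -2.00% in the S/G1 ratio.

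In follicle cells X was never below all 3 arms. In Rif1- mitotic follicle cells X had a median of 0.018 and the background -0.012, a difference of 0.030, but 2L was higher than X at 0.020. In Rif1PP1 mitotic follicle cells X was at -0.0035 and the background at 0.012, a difference of -0.016, where the arms themselves were spread between -0.019 and 0.063. In Rif1-/+ mitotic follicle cells X was at 0.0063 and the background at 0.016, a difference of -0.0099. In WT mitotic follicle cells X was at 0.028 and the background at 0.021, a difference of 0.0063. None of these 4 differences put X outside the arms. In endocycling follicle cells X was above all 3 arms, at 0.031 against -0.020 in the background for Rif1- (difference 0.051, highest arm -0.0077) and at 0.040 against 0.016 for WT (difference 0.023, highest arm 0.040). In WT endocycling cells X and 2L were practically equal.

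**Figure D1:**
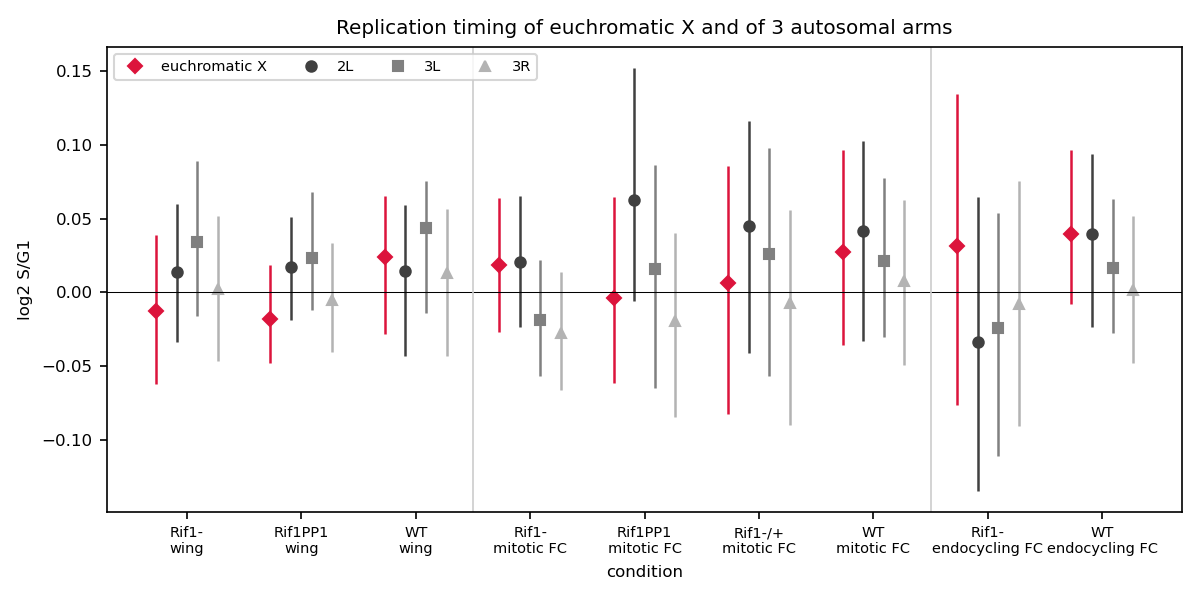
Median log2 S/G1 (points) and interquartile range over windows (lines) of euchromatic X and of 2L, 3L and 3R in the 9 conditions. X is the lowest of the 4 medians in Rif1- and Rif1PP1 wing discs and the highest in both endocycling conditions, and in all conditions the interquartile ranges overlap.

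The distributions overlapped widely in every condition, so that the shift of X is one of many windows by a small amount. The share of X windows above the background median was 35.02% in Rif1- wing discs, 30.8% in Rif1PP1 wing discs and 49.6% in WT wing discs, where the background has 50% by definition. In mitotic follicle cells it was 68.1% for Rif1-, 43.8% for Rif1PP1, 47.1% for Rif1-/+ and 52.5% for WT. In endocycling follicle cells it was 63.4% for Rif1- and 61.8% for WT. The SD over X windows was between 0.83 and 1.09 times that over background windows, so X was about as variable along its length as the arms.

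Relative to the background, the change of the X level lay outside the range of the 3 arms in 7 of the 8 comparisons, though barely so in 1. Among X and the 3 arms, the highest and the lowest always lie outside the range of the others. In each comparison at least 1 arm therefore did so too, and the count alone does not set X apart from an arm. The X level was lower by 0.029 in Rif1- than in WT wing discs, where the arms changed by between -0.0032 and 0.0076. It was lower by 0.028 in Rif1PP1 than in WT wing discs, with the arms between -0.0060 and 0.017. Both of these comparisons share the WT disc values, as the 3 of mitotic follicle cells share theirs. In WT endocycling against WT mitotic follicle cells it was higher by 0.017, with the arms between -0.0016 and 0.0034, and at every 10th window, where windows do not overlap, by 0.0071. In Rif1- against WT mitotic follicle cells it was higher by 0.024, with the arms between -0.0067 and 0.012. There the X median itself changed by -0.0091, and that of the background changed by -0.033. In Rif1PP1 against WT mitotic follicle cells it was lower by 0.022, with the arms between -0.018 and 0.031, and here 1 arm changed by more in the other direction. In Rif1-/+ against WT mitotic follicle cells it was lower by 0.016, with the arms between -0.010 and 0.0097. In the Rif1-/+ comparison the distal and proximal parts of X, split at the median window, went opposite ways, at -0.053 and 0.020. For Rif1PP1 mitotic follicle cells these parts were at -0.042 and -0.0031. In Rif1- against WT endocycling follicle cells the change was 0.028, just outside the range of the arms from -0.037 to 0.027. In WT mitotic follicle cells against WT wing discs it was 0.0067, within their range from -0.019 to 0.030.

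**Figure D2:**
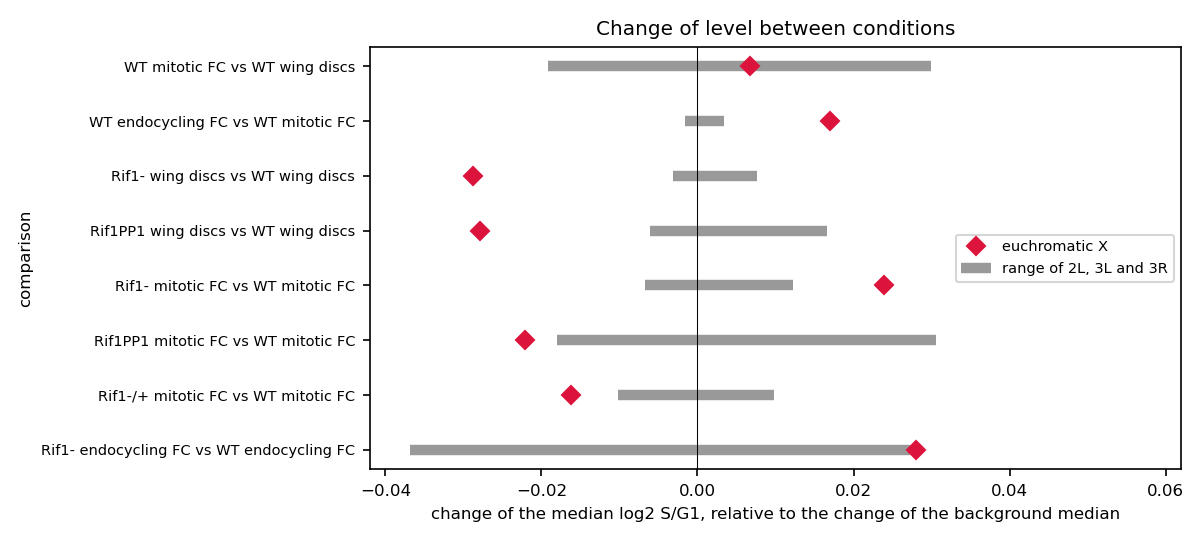
Change of the median log2 S/G1 between conditions, relative to the change of the background median, for euchromatic X (diamonds) and as a range over 2L, 3L and 3R (bars). X lies at -0.029 and -0.028 in the wing disc mutants, left of every arm, and at 0.017 in WT endocycling against WT mitotic follicle cells, right of every arm.

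Windows that changed by over 0.1 were counted after the 2 conditions of a comparison had been quantile normalized to each other. In Rif1- wing discs, 0.520% of X windows (10) were higher and 9.47% (182) lower than in WT wing discs, while 2.79% of all windows were called higher and 4.60% lower. In the background arms these shares were 2.13% and 2.99%, and no arm had more than 4.19% lower. In Rif1PP1 wing discs, 1.46% of X windows were higher and 14.7% lower than in WT, against 5.93% and 6.62% of all windows, and 4.48% and 4.56% in the background. Both mutant discs thus had a larger share of lower windows on X than on any background arm, the highest being 7.16% on 3R in Rif1PP1. When each condition was centred on its background median in place of quantile normalization, 0.937% of X windows were higher and 7.08% lower in Rif1- discs, against 4.02% and 1.96% in the background. On that scale 4.89% were higher and 7.75% lower in Rif1PP1 discs, against 10.04% and 1.77%. No X window in Rif1- discs and 1.72% in Rif1PP1 discs was lower by over 0.2, against 0.0549% and 0.0961% of background windows.

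In mitotic follicle cells the shares on X depended on the scale. In Rif1- mitotic follicle cells, 8.48% of X windows were higher and 9.47% lower than in WT, against 13.4% and 15.0% of all windows and 6.39% and 15.4% in the background. Centred on the background medians, 14.5% of X windows were higher and 3.64% lower, against 9.85% and 6.26% in the background. On both scales X had more higher and fewer lower windows than the pooled background, but 2L had a larger share of higher windows than X, with 15.2% higher and 9.84% lower after quantile normalization. In Rif1PP1 mitotic follicle cells, 7.08% of X windows were higher and 18.9% lower, against 15.8% and 17.8% of all windows and 12.6% and 13.3% in the background. On 3R alone the shares were 5.19% and 18.9%, so the lower share of X was that of an autosomal arm. In Rif1-/+ mitotic follicle cells, which keep a normal copy of Rif1, 6.45% of X windows were higher and 20.9% lower, against 15.5% and 17.3% of all windows and 9.01% and 10.96% in the background. The share of lower X windows in Rif1-/+ was therefore above that in the null mutant. In Rif1- endocycling follicle cells, 24.1% of X windows were higher and 26.3% lower than in WT, against 24.4% and 26.5% of all windows and 17.5% and 25.9% in the background. With the trend of timing with GC content removed, the shares became 13.7% and 5.57% on X and 10.7% and 5.42% in the background. The lower share of X was close to that of the background both before and after this removal.

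The WT comparisons gave X shares near the background. In WT mitotic follicle cells 12.2% of X windows were higher and 17.7% lower than in WT wing discs, against 17.1% and 18.9% of all windows and 13.6% and 18.9% in the background. Centring turned the split on X round, to 19.4% higher and 13.0% lower, and that of the background to 18.9% and 14.5%. In WT endocycling against WT mitotic follicle cells, 0.468% of X windows (9) were higher and 0 lower. The shares were 1.44% and 1.84% of all windows, and 0.742% and 0.838% in the background. Profiles of the 2 WT follicle cell stages correlated over X with Pearson r = 0.96, as a description over 1922 overlapping windows whose ratios may share a G1 control. WT mitotic follicle cells and WT wing discs gave 0.35 over X and 0.36 over the background.

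**Figure D3:**
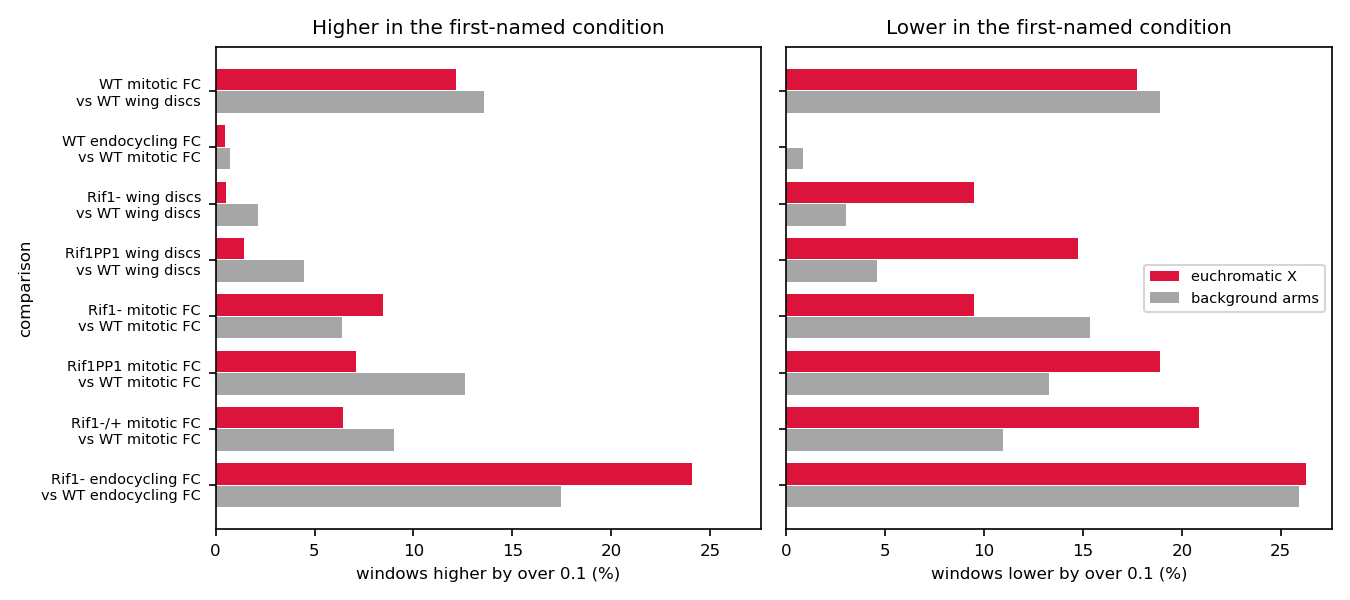
Share of windows higher (left) or lower (right) by over 0.1 in log2 S/G1 after quantile normalization of each pair, for euchromatic X (red) and the background arms (grey). In both wing disc mutants the lower share of X (9.47% and 14.7%) stands above that of the background (2.99% and 4.56%).

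Along its length, X was not shifted evenly. Of its 21 bins of 1 Mb, 17 were lower relative to the background in Rif1- than in WT wing discs, where 30 of 74 background bins were lower, and 15 were lower in Rif1PP1 wing discs, where 32 of 74 were. The most distal bin fell the most in both, by 0.084 in Rif1- and by 0.077 in Rif1PP1 discs. The most proximal bin, at 20 Mb, went the other way and was higher by 0.058 in Rif1- and by 0.056 in Rif1PP1 discs. In Rif1- mitotic follicle cells 15 of the 21 X bins were higher than in WT and 36 of 74 background bins were. In WT endocycling follicle cells 15 of the 21 were higher than in WT mitotic ones, with the largest rise at 0.054, and 39 of 74 background bins were higher.

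The second bin, from 1 to 2 Mb, changed the most of the 21 bins in 3 comparisons, WT mitotic follicle cells against WT wing discs and Rif1- against WT in both mitotic and endocycling follicle cells. Its median was 0.0030 in Rif1- wing discs, -0.043 in Rif1PP1 wing discs and 0.041 in WT wing discs. In mitotic follicle cells it was -0.078 for Rif1-, -0.23 for Rif1PP1, -0.23 for Rif1-/+ and -0.15 for WT. In endocycling follicle cells it was 0.17 for Rif1- and -0.12 for WT. The distal X was thus the latest bin of X in all 4 mitotic follicle cell conditions and in WT endocycling cells, and among the earliest in Rif1- endocycling cells. Its median GC content was 47.3%, the highest of the 21 bins.

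**Figure D4:**
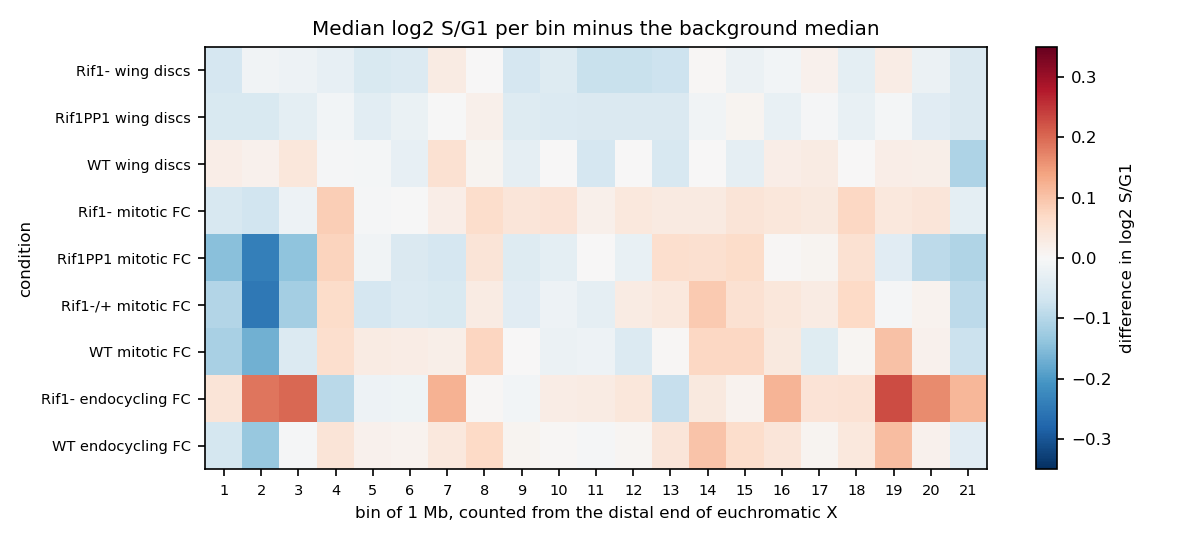
Median log2 S/G1 in bins of 1 Mb along euchromatic X (columns, counted from the distal end) minus the background median of the condition (rows). The second bin is blue in 5 of the 6 follicle cell conditions and red in Rif1- endocycling follicle cells, and most bins of the mutant wing discs are pale blue.

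GC content moved with timing on X, and in opposite directions in different conditions. The Spearman coefficient of timing with GC over X windows was 0.79 in Rif1- endocycling follicle cells (0.75 in the background) and -0.64 in Rif1PP1 mitotic follicle cells (-0.44 in the background). In the other 7 conditions it lay between -0.31 and 0.15. With the trend of the background windows removed, the correlation of Rif1- with WT endocycling follicle cells over X was 0.62, against 0.18 in the deposited values. That of Rif1- endocycling with Rif1- mitotic follicle cells was 0.81 after removal and 0.37 before. With this step the level of X relative to the background moved the most in Rif1-/+ mitotic follicle cells, to -0.0040 after removal, against -0.0099 before, and its change from WT became -0.0092, against -0.016. In Rif1PP1 wing discs the level was -0.023 after removal and -0.028 before. In the other 7 conditions it kept its sign and moved by less, to -0.029 in Rif1- wing discs and 0.051 in Rif1- endocycling follicle cells. The part of GC content in these values was not tested.

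The earliest run of X in Rif1-, Rif1PP1 and WT mitotic and in WT endocycling follicle cells was a block of 10 consecutive windows from 8200001 to 8390000, next to the left-out chorion cluster. Their mean was 0.27 in Rif1-, 0.31 in Rif1PP1, 0.21 in Rif1-/+ and 0.42 in WT mitotic follicle cells, and 0.21 in Rif1- and 0.47 in WT endocycling follicle cells. In Rif1-, Rif1PP1 and WT wing discs it was -0.092, -0.069 and -0.090. All 6 follicle cell conditions were high and all 3 wing disc conditions low. These 10 windows are exactly those that contain the segment from 8290001 to 8300000. The last window before them in WT mitotic follicle cells was at 0.038, the 10 ranged between 0.39 and 0.44, and the first window after them was at 0.0049. The level changed where windows took in or lost this 10-kb segment, which holds the hobo element printed above.

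**Figure D5:**
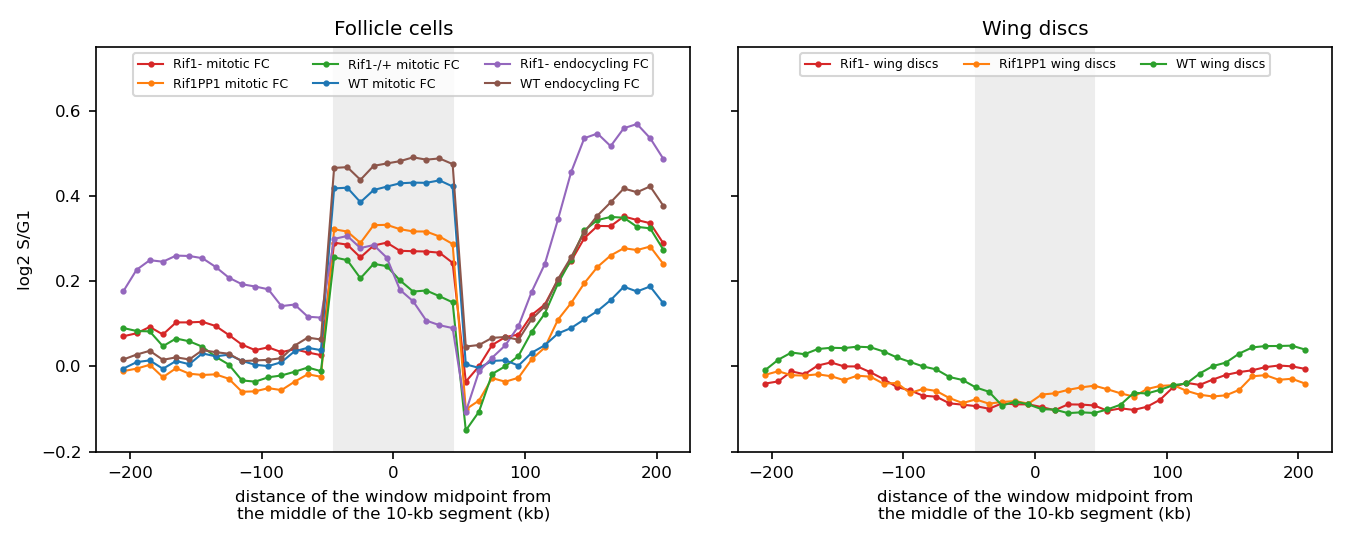
Log2 S/G1 of single windows against the distance of their midpoint from the middle of the 10-kb segment that holds the hobo element, for follicle cells on the left and discs on the right. The grey band covers the 10 windows that contain the segment, which stand at 0.42 in WT mitotic follicle cells and at -0.090 in WT wing discs. The rise to the right in follicle cells is the left-out chorion cluster.

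The height of the step, the mean of the 10 windows minus that of their 2 neighbours, was 0.28 in Rif1-, 0.38 in Rif1PP1, 0.29 in Rif1-/+ and 0.40 in WT mitotic follicle cells. It was 0.20 in Rif1- and 0.42 in WT endocycling follicle cells, and between -0.024 and 0.0043 in the 3 wing disc conditions. No other 10-kb segment of the 1895 on euchromatic X entered and left its windows with a step of over 0.15 in any condition. The same search found such steps on 2L and 3L, and none on 3R. Those at 12800001 to 12810000 of 2L were 0.18 and 0.15 in WT mitotic follicle cells. At 9100001 to 9110000 of 3L they were 0.27 and 0.29 in Rif1- mitotic follicle cells. Neither of these segments holds an annotated hobo copy. Euchromatic X holds 2 more annotated hobo copies, both under 2000 bases, whose steps in WT mitotic follicle cells were 0.045 and 0.047. In the background, 33 copies under 2000 bases had a median step of -0.0016 there, with a range from -0.29 to 0.14. The 2 longer ones, which share the same windows on 2L, stood at 0.14. The highest of the short copies, of 1406 bases, lies in nearly the same windows as these, so length and place cannot be told apart there. The number of hobo copies in each strain was not measured, and its part in the step was not tested.

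Without these 10 windows, the earliest X region of all 4 mitotic follicle cell conditions and of WT endocycling cells lay at and beside mamo. This gene encodes a zinc finger protein of the germ line. The region spanned 11 windows in WT mitotic follicle cells, from 13890001 to 14090000 with a mean of 0.27, where WT wing discs had 0.078. At nearly the same place the runs of Rif1-, Rif1PP1 and Rif1-/+ mitotic follicle cells had means of 0.19, 0.25 and 0.32. Over the 11 windows of the WT mitotic run Rif1- endocycling follicle cells were at -0.027 and WT endocycling cells at 0.26. The region was therefore early in every follicle cell condition but Rif1- endocycling. The earliest run of Rif1- endocycling cells lay from 19540001 to 19800000, with a mean of 0.41, where WT endocycling cells had 0.024. It holds 53 protein-coding genes, the longest of which is zld, near its proximal end. The GC content of this run was 48.1%, against 39.1% at mamo. Timing in Rif1- endocycling cells had a Spearman coefficient of 0.79 with GC content over X windows. The part of GC content in the values of these regions was not tested.

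The latest region of WT follicle cells lay at Ten-a, which encodes a teneurin, a cell surface protein of synapses, and 32 windows from 12040001 to 12450000 carried it. Their mean was -0.091 in Rif1-, -0.028 in Rif1PP1, -0.28 in Rif1-/+ and -0.33 in WT mitotic follicle cells. It was -0.23 in both Rif1- and WT endocycling follicle cells. In wing discs it was -0.14 in Rif1-, -0.10 in Rif1PP1 and -0.11 in WT. Both Rif1 mutants were earlier here than WT in mitotic follicle cells, Rif1-/+ was nearer to WT, and in endocycling cells and discs the genotypes lay closer together. The latest runs of the mutant wing discs lay inside the same region, with means of -0.19 in Rif1- (12160001 to 12440000) and -0.16 in Rif1PP1 (12190001 to 12400000). The latest run of WT wing discs was elsewhere, from 19890001 to 20160000 around Dop2R, a dopamine receptor gene, at -0.18, against -0.11 in Rif1- and -0.10 in Rif1PP1 discs. The earliest run of WT wing discs lay from 2230001 to 2390000 with Raf, a kinase of the Ras pathway, at 0.12. The earliest run of both mutant discs lay from 2960001 to 3160000, next to the left-out kirre block. Most of this run lies within the kirre gene, and it holds parts of rst and N. Its mean was 0.17 in Rif1- and 0.13 in Rif1PP1, where WT discs had 0.082.

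Another late region, at dpr8, which encodes an immunoglobulin domain protein of neurons, was earlier in both mutants. Over 21 windows from 14270001 to 14570000, Rif1- mitotic follicle cells had 0.0012, against -0.22 in WT, a deposited difference of 0.22 and a change of 0.17 after quantile normalization. Over 24 windows from 14270001 to 14600000, Rif1PP1 mitotic follicle cells had 0.068, against -0.20 in WT, a difference of 0.26 (0.24 after normalization). These runs had the largest rise on X in either comparison after quantile normalization. On centred values the largest in Rif1PP1 was at Ten-a, over 40 windows from 12020001 to 12510000, at -0.0059 against -0.28 in WT. The largest advance in WT endocycling against WT mitotic follicle cells fell in the same place, with 7 windows from 14270001 to 14430000 at -0.015 and -0.14. Rif1-/+ mitotic cells stayed at -0.20 over the 21 windows. In wing discs the same windows were at -0.10 in Rif1-, -0.052 in Rif1PP1 and -0.15 in WT, so that the order of the genotypes was the same over a smaller range.

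After quantile normalization, the longest of the named runs of change was in the GC-rich distal part of X. Between WT mitotic follicle cells and WT wing discs, 73 consecutive windows from 1200001 to 2020000 were lower in follicle cells, at -0.17 against 0.054, with a change of -0.24 after normalization. The stretch holds arm, which encodes beta-catenin, br, an ecdysone-induced transcription factor gene, and fs(1)N, needed for the vitelline membrane. It had a mean GC content of 48.2%, and with the GC trend removed the difference was -0.18. On centred values the largest fall between these tissues was instead at Ten-a, over 30 windows from 12040001 to 12430000, at -0.34 in follicle cells and -0.11 in discs. The largest fall in both mutant wing discs began inside this stretch. Rif1- discs were at -0.073 over 22 windows from 1880001 to 2190000, against 0.075 in WT discs. Rif1PP1 discs were at -0.097 over 34 windows from 1830001 to 2260000, against 0.074 in WT discs. With the GC trend removed these falls were -0.12 and -0.10.

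In mutant follicle cells the largest changes after quantile normalization need the deposited values beside them. The largest fall in Rif1- mitotic follicle cells was assigned to 11 windows from 11130001 to 11330000 with a mean of -0.35, but the deposited values there were -0.16 in Rif1- and -0.13 in WT, a difference of -0.024. On centred values the largest fall was at another place, over 11 windows from 18880001 to 19080000, at -0.0029 in Rif1- and 0.19 in WT. In Rif1PP1 mitotic follicle cells the largest fall covered 55 windows from 1220001 to 1860000 with -0.42, where the deposited values were -0.29 and -0.18. That fall was -0.100 on centred values and -0.066 with the GC trend removed. On centred values the largest fall in Rif1PP1 was instead over 81 windows from 18250001 to 19150000, at -0.038 against 0.14 in WT. In Rif1- endocycling follicle cells 62 windows from 1140001 to 1850000 were higher, at 0.21 against -0.13 in WT. That difference of 0.34 was 0.15 with the GC trend removed. The largest fall there was in 10 windows from 11140001 to 11330000, at -0.34 against -0.097, and it was -0.056 with the GC trend removed. In Rif1-/+ mitotic follicle cells 38 windows from 15690001 to 16160000, with CycD and sd, were higher, at 0.10 against -0.055 in WT, and the largest fall was in the windows of the hobo segment. The single run of higher windows in Rif1- wing discs had 5 windows from 20080001 to 20220000, at 0.043 against -0.069 in WT. The highest run in Rif1PP1 wing discs had 7 windows from 14550001 to 14710000 with NetA and NetB, at 0.075 against -0.040.

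Genes of 6 lists were read at the window nearest to each gene, and 58 of the 65 different genes listed fell in X windows of the rule. Of the others, 5 lay in left-out windows. Of the sex determination and dosage compensation list, 6 of 7 genes lay in X windows of the rule (run lay outside). In wing discs 3 of the 6 were above the background median in Rif1-, 3 in Rif1PP1 and 4 in WT, beside 35.02%, 30.8% and 49.6% of all X windows. In WT wing discs mof, the histone acetyltransferase of dosage compensation, was highest at 0.089 and sisA, an X-linked signal element of sex determination, lowest at -0.051. The window of sisA was at -0.060 in Rif1- and -0.15 in Rif1PP1 discs. In WT mitotic follicle cells upd1, a ligand of the JAK/STAT pathway, was highest at 0.11. Between WT mitotic follicle cells and WT wing discs, roX2 differed most after normalization, at 0.00095 and 0.060. Sxl, the switch gene of female development, was at 0.065 in Rif1-, 0.073 in Rif1PP1 and 0.025 in WT wing discs, in a direction opposite to that of X as a whole.

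Of the DNA replication and cell cycle list, 7 of 8 genes lay in X windows. In wing discs 3 of the 7 were above the background median in Rif1-, 2 in Rif1PP1 and 4 in WT, beside 35.02%, 30.8% and 49.6% of all X windows. Mcm6, a subunit of the replicative helicase, was highest in WT wing discs at 0.10, and it was at 0.036 in Rif1- and 0.018 in Rif1PP1 discs. Mcm3, another subunit, was highest in WT mitotic follicle cells at 0.16, against 0.0023 in WT wing discs. Cdc45, which travels with that helicase, was lowest in both, at -0.17 in WT mitotic follicle cells and -0.058 in WT wing discs, and at -0.21 in Rif1PP1 mitotic follicle cells. Rbf, the retinoblastoma homolog, differed most between the tissues after normalization, at -0.077 in WT mitotic follicle cells and 0.071 in WT wing discs.

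All 13 genes of the wing disc patterning list lay in X windows. In wing discs 5 of the 13 were above the background median in Rif1-, 3 in Rif1PP1 and 9 in WT, beside 35.02%, 30.8% and 49.6% of all X windows. In WT wing discs fu, a kinase of Hedgehog signalling, was highest at 0.081, and hep, a kinase of the JNK pathway, lowest at -0.031. In WT mitotic follicle cells ct, a homeodomain gene of the wing margin, was highest at 0.18 and arm lowest at -0.14, and arm was at 0.061 in WT wing discs. The window of arm was at -0.014 in Rif1- and -0.080 in Rif1PP1 wing discs.

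Of the ovary, yolk and eggshell list, 11 of 13 entries lay in X windows (otu lay in a left-out block and dec-1 was not matched). In mitotic follicle cells 8 of the 11 were above the background median in Rif1-, 4 in Rif1PP1, 7 in Rif1-/+ and 7 in WT, beside 68.1%, 43.8%, 47.1% and 52.5% of all X windows. br was lowest of the list in all 4, at -0.11 in Rif1-, -0.35 in Rif1PP1, -0.33 in Rif1-/+ and -0.20 in WT, and highest of the list in WT wing discs at 0.092. It is also the list member with the largest difference between the WT tissues. peb, a zinc finger gene, was highest in WT mitotic follicle cells at 0.16, and brn, a glycosyltransferase gene, lowest in WT wing discs at -0.079. Yp1 and Yp2, yolk protein genes, share a window at 0.11 in WT mitotic follicle cells and 0.057 in WT wing discs.

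Of the neuronal list, 13 of 16 genes lay in X windows, and these were the latest list in WT wing discs. There 2 of the 13 were above the background median, beside 49.6% of all X windows. In mitotic follicle cells 9 were above it in Rif1-, 7 in Rif1PP1, 5 in Rif1-/+ and 5 in WT, beside the same shares of all X windows (68.1%, 43.8%, 47.1% and 52.5%). In Rif1- endocycling follicle cells 2 of the 13 were above it, and in WT endocycling cells 7, beside 63.4% and 61.8% of all X windows. Timing in Rif1- endocycling cells had a Spearman coefficient of 0.79 with GC content over X windows, and the part of GC content in this count was not tested. dpr8 was lowest in WT wing discs at -0.19 and sdk, a synaptic adhesion gene, highest at 0.067. Ten-a was lowest in WT mitotic follicle cells at -0.40, with -0.12 in Rif1- and -0.042 in Rif1PP1, and also differed most from WT wing discs (-0.094) in the list. NetA, a secreted guidance cue, was highest in WT mitotic follicle cells at 0.13, against -0.042 in WT wing discs.

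All 9 genes of a list of visible markers, most of them eye colour genes, lay in X windows. The list also holds f, a bristle gene, lz, a gene of eye structure, and cv and m, genes of the wing. In mitotic follicle cells 8 of the 9 were above the background median in Rif1-, 5 in Rif1PP1, 6 in Rif1-/+ and 4 in WT, where 68.1%, 43.8%, 47.1% and 52.5% of all X windows were. In wing discs 3 were in Rif1-, 3 in Rif1PP1 and 6 in WT, where 35.02%, 30.8% and 49.6% of all X windows were. v, the tryptophan oxygenase gene of eye colour, was lowest in both WT tissues, at -0.14 in the mitotic follicle cells and -0.025 in the discs, and differed most between them. m was highest in WT wing discs at 0.075, and rb, an adaptor protein gene, in WT mitotic follicle cells at 0.14.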

How the data were processed

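The deposited table holds log2 S/G1 ratios that the authors made by aligning reads to dm6 with Bowtie2 2.3.2, keeping reads of mapping quality over 10 (SAMtools 1.9), counting them in 100-kb windows sliding by 10 kb, scaling to library size, dividing S by G1 and averaging over S phase samples. It was used as deposited. Of 35 samples in the series, RNA samples were not used here and 1 sample with conflicting phase labels was assigned to no group. Medians of X were compared with those of the background. Changed windows were those past 0.1 after quantile normalization of each pair over all scaffolds, since the study's limma test needs replicate values. Runs had at least 5 consecutive windows beyond the 5th or 95th percentile of X, or past 0.1, and the most extreme run of each condition and comparison was named. In each gene list, members highest and lowest in WT wing discs and WT mitotic follicle cells, and the one differing most between them, were named, and other genes were chosen after their values were seen, as were the genes used to name runs. The members and lists were chosen with earlier results of these data known. GC content and repeats came from the RefSeq dm6 sequence, and genes and transposons from the Ensembl annotation of the same assembly, whose lengths of X, 2L, 3L and 3R equal the last window ends. The GC trend is the median in 50 bins of background windows. The calculations were tested on simulated data and used pandas 2.3.3, scipy 1.17.1 and numpy 2.4.6 under Python 3.11.15.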

Additional observations from a re-analysis of the deposited data

Results flagged for a closer look

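The change of the X level between Rif1- and WT had opposite signs in the tissues. Relative to the background arms, X was lower by 0.029 (-0.029) in Rif1- than in WT wing discs and higher by 0.024 (0.024) in Rif1- than in WT mitotic follicle cells. Whether these changes differ was not tested, since each condition has 1 deposited mean. The X median itself was lower in Rif1- in both tissues, with changes of -0.037 in wing discs and -0.0091 in mitotic follicle cells. The background median changed by -0.0079 and -0.033. With 2L alone as background, the change of the X level in mitotic follicle cells was 0.012.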

How the results depend on the processing

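No paired analysis was possible because each condition is deposited as 1 mean, which carries no replicate number. Leaving out a replicate was not possible for the same reason. Of the 117 values of the X level and 104 of its change computed under the alternatives, 105 and 90 moved by less than the spread between arms. All 18 of the SD ratio and 26 of 27 correlations stayed within the limits set for those measures. Of the 112 shares of changed X windows, 70 stayed within 1.5 times. The removal of the hobo windows, and the GC correction of the shares of changed windows, were chosen after seeing the data. The removal of the hobo windows moved none of these values past those limits. Read depth is unknown, so what it limits could not be computed.

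With 2L alone as background, the X level was -0.0020 in Rif1- mitotic follicle cells, a reversed sign, and 0.000020 in WT endocycling cells. It was -0.014 in WT mitotic follicle cells, where the sign also turned, -0.066 in Rif1PP1 and -0.039 in Rif1-/+ mitotic follicle cells, and 0.065 in Rif1- endocycling cells. The change of level was then -0.036 in Rif1- and -0.044 in Rif1PP1 wing discs, 0.012 in Rif1- and -0.053 in Rif1PP1 mitotic cells, and 0.065 in Rif1- endocycling cells. It was 0.014 between the WT follicle cell stages and -0.023 between the WT tissues, with the sign turned. With 3L alone the level was -0.047 in Rif1- and -0.020 in WT wing discs, and with 3R alone -0.013 in Rif1PP1 wing discs. With 3R alone the sign turned in Rif1PP1 (0.015) and Rif1-/+ (0.014) mitotic cells. The change was then 0.00077 in Rif1- endocycling cells and -0.0041 in Rif1PP1 mitotic cells. The level in WT wing discs, near 0, turned to 0.0095 with 2L and 0.011 with 3R alone.

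In the distal part of X the level was 0.037 in Rif1- endocycling and -0.053 in Rif1-/+ cells, and the change was -0.037 in Rif1- discs, -0.053 in Rif1-/+ and 0.0074 between WT stages. There the level in WT discs (0.0012) and the change between WT tissues (-0.0012) turned sign. In the proximal part the level in Rif1-/+ was 0.034 and in Rif1PP1 mitotic cells 0.012, both with the sign turned, and the change was -0.020 in Rif1- discs, 0.020 in Rif1-/+, with the sign reversed, and 0.023 between WT stages. At every 10th window the change between WT stages was 0.0071 and the share higher in Rif1- discs 1.04% (background 2.19%).

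Centred on background medians, 0.937% of X windows were higher in Rif1- discs (background 4.02%). In Rif1PP1 discs 4.89% were higher and 7.75% lower (background 10.04% and 1.77%). In Rif1- mitotic cells 14.5% were higher and 3.64% lower (background 9.85% and 6.26%). Between WT stages 2.55% were higher (background 2.46%), and between WT tissues 19.4% (background 18.9%). On values as deposited, 2.91% were higher in Rif1PP1 discs (background 7.83%) and 2.19% between WT stages (background 2.21%). With all conditions normalized together, 1.66% of X windows were higher and 16.3% lower in Rif1- discs (background 7.91% and 7.28%), and 6.035% and 25.2% in Rif1PP1 discs (background 12.5% and 11.2%). They were 3.75% and 11.6% in Rif1-/+ (background 4.37% and 5.59%), and 0.260% were higher between WT stages (background 0.220%).

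With the GC trend removed, 0.937% were higher in Rif1- discs, 3.85% higher and 5.36% lower in Rif1PP1 discs, 13.4% higher and 3.90% lower in Rif1- mitotic cells, 4.53% higher in Rif1PP1 mitotic cells, 3.07% higher between WT stages and 11.4% lower between WT tissues. In Rif1- endocycling cells 13.7% were higher and 5.57% lower (background 10.7% and 5.42%), and the correlation with WT was 0.62. At a threshold of 0.2, X shares were 0% higher and 0% lower in Rif1- discs (background 0.0412% and 0.0549%). They were 0% and 1.72% in Rif1PP1 discs (background 0.0412% and 0.0961%). In mitotic cells they were 0.572% and 2.91% in Rif1- (background 2.27% and 6.63%) and 2.19% and 6.19% in Rif1PP1 (background 5.60% and 4.06%). In Rif1-/+ they were 0.312% and 3.33% (background 0.851% and 0.934%), and in Rif1- endocycling cells 9.16% and 11.2% (background 3.28% and 10.2%). They were 0% higher between WT stages (background 0.330%), and 0.728% higher and 4.06% lower between WT tissues (background 1.80% and 4.77%). Where the construction of an alternative does not show it, the cause was not tested.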
